A study of Homo sapiens with 6 samples.

Results

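MYCN, MYCNOS, DDX1, NBAS and FAM49A lie on the short arm of chromosome 2 at band 2p24, the segment that is amplified around MYCN in many high-risk neuroblastomas. Chromatin immunoprecipitation sequencing (ChIP-Seq) had been performed in the MYCN-amplified neuroblastoma line CHP-134, with an anti-N-Myc antibody in 3 samples and an anti-JMJD6 antibody in the other 3, which are labelled by an older name of JMJD6, PTDSR. All 6 samples came from this line grown in RPMI medium with serum, and the labels name no drug or genetic change. The N-Myc samples were cross-linked with formaldehyde alone and the JMJD6 samples with disuccinimidyl glutarate (DSG) followed by formaldehyde, so protein and cross-linking cannot be told apart in any difference between the lists. The lists hold only positions, of peaks common to the 3 replicates and of the regions overlapping them. There is therefore no value per sample, no peak height and no spread between replicates, and intervals of shares below cover counting error over listed peaks only. The 5 genes, of 8280 named in the region lists, were chosen by name, and their peaks were chosen by position, as every common peak between 14 and 18 Mb on chromosome 2. That span held 72 of the 10172 N-Myc peaks and 57 of the 561 JMJD6 peaks. It was set with the peak density there known, so the peak numbers and the overlap of the lists are a description, without a test.

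MYCN encodes N-Myc, a basic helix-loop-helix transcription factor that pairs with MAX and binds E-boxes, of which CACGTG is the canonical form. MYCNOS is transcribed antisense to MYCN across its start. DDX1, a DEAD-box RNA helicase, and NBAS, a protein of Golgi-to-endoplasmic-reticulum transport and of nonsense-mediated mRNA decay, lie upstream of MYCN and are often amplified with it, whereas FAM49A, a regulator of actin through RAC1, lies downstream. JMJD6 is a jumonji-domain protein that has been described as an arginine demethylase acting at enhancers. As a check of the cell label, 8 of 9 markers of the adrenergic neuroblastoma state had an enhancer or super-enhancer with N-Myc, and none had a promoter with N-Myc. Over all annotated genes 16.7% had a typical enhancer and 0.691% a super-enhancer with N-Myc. HAND2 was named for 4 super-enhancers and GATA3 for 1, and DBH had neither an enhancer nor a super-enhancer.

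The sequences around MYCN that the results turn on are given here from GRCh37, plus strand. The first is the 300-base stretch directly before the MYCN start of the promoter list, inside the N-Myc peak that covers the start. It held no CACGTG, and its 3 matches to the general E-box CANNTG are in capitals. Of 35116 RefSeq promoters of the same length (GRCh38.p14), 68.7% held a CANNTG and 7.26% a CACGTG.
Upstream of MYCN, chr2:16080259-16080558: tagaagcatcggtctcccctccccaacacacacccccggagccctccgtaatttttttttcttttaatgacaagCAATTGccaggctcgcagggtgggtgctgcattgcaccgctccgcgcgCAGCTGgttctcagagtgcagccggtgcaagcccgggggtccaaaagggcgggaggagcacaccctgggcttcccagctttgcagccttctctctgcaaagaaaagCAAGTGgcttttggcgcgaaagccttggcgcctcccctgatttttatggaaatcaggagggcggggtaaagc
The second is the whole typical enhancer that was the only listed region with JMJD6 to name MYCN. It held no CANNTG, so nothing is capitalized.
Enhancer at -84.4 kb from MYCN, chr2:15996200-15996385: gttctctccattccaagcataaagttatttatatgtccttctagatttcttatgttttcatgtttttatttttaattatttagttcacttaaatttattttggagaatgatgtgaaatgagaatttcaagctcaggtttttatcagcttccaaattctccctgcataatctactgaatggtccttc
The base composition of the pair differed: G and C made up 58% of the first and 29.6% of the second, which had no CG dinucleotide.

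The next sequences surround several of the E-boxes in peaks upstream of MYCN, in capitals with 30 bases on each side. They are shown because so few peaks of this segment held one. The site at -50.5 kb from MYCN, 1 in an intron of DDX1 and 2 in introns of NBAS lie in peaks listed for N-Myc alone. They are followed by the only one in a peak of JMJD6 alone and one in CA-rich sequence within an intron of a long non-coding gene, ENSG00000287291. The last is the noncanonical E-box CACGCG just before the start of DDX1.
N-Myc only upstream of MYCN, chr2:16030141-16030206: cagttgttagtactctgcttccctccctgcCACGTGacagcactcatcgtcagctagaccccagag
N-Myc only in DDX1, chr2:15755481-15755546: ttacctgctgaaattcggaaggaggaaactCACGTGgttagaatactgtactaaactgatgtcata
N-Myc only in NBAS, chr2:15339453-15339518: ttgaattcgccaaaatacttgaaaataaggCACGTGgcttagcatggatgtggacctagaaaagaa
N-Myc only in NBAS, chr2:15446558-15446623: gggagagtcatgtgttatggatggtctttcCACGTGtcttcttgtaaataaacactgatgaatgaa
JMJD6 only in NBAS, chr2:15458600-15458665: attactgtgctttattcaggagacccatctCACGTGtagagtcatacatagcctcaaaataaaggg
N-Myc only in ENSG00000287291, chr2:14887289-14887354: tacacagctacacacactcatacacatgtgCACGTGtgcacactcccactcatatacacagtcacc
N-Myc only at the DDX1 start, chr2:15731246-15731311: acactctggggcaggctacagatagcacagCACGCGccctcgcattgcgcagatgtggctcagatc

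MYCN (chr2:16080672-16087129, plus strand) and MYCNOS (chr2:16058473-16082371, minus strand) overlap at their starts. There the N-Myc lists had a peak, a promoter and a super-enhancer, and the JMJD6 lists had none of them. Such an absence was usual: 2.09% of the 10093 N-Myc peaks elsewhere were shared with JMJD6. Over all annotated genes 0.357% had a promoter and 0.0391% a super-enhancer with JMJD6. The N-Myc peak chr2:16079972-16080771 (800 bp) reached into the first exon of MYCN and covered exons of MYCNOS, and 58% of its bases were G or C. A second N-Myc peak, chr2:16082023-16082438 (416 bp), covered the start of MYCNOS and the beginning of the second MYCN exon, which is coding. Both MYCNOS promoters in the N-Myc list contained that second peak. The super-enhancer at MYCN, chr2:16080970-16082478, was 1.509 kb long and contained the same peak. It was also assigned to FAM49A, the next of the 5 genes downstream.

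In the 100 kb upstream of MYCN, the N-Myc and JMJD6 lists had different intervals with a single exception. Between 15996182 and 16082438, 1 of 3 JMJD6 peaks was shared, beside 42.9% of JMJD6 peaks elsewhere. Of the N-Myc peaks there, 1 of 7 was shared, beside 2.09% elsewhere. Peaks this few cannot show a separation beyond the usual one. Absence from a list means no peak common to the 3 replicates, which need not be an absence of binding. Between 16 Mb and MYCN the other N-Myc peaks were chr2:16029389-16030735 (1347 bp), chr2:16031041-16031631 (591 bp), chr2:16048557-16048994 (438 bp) and chr2:16054607-16055581 (975 bp). The first of them is the one with the canonical E-box shown above. JMJD6 had peaks at chr2:16037576-16038305 (730 bp) and chr2:16045291-16046021 (731 bp), and the latter, at 34.65 kb, was the JMJD6 peak nearest to the MYCN start. The exception was the interval chr2:15996182-15996697 (516 bp), listed for both proteins. It contained the whole enhancer at -84.4 kb, which at 186 bp was the shortest of the 4649 typical enhancers with N-Myc, whose median was 2.553 kb.

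**Figure D1:**
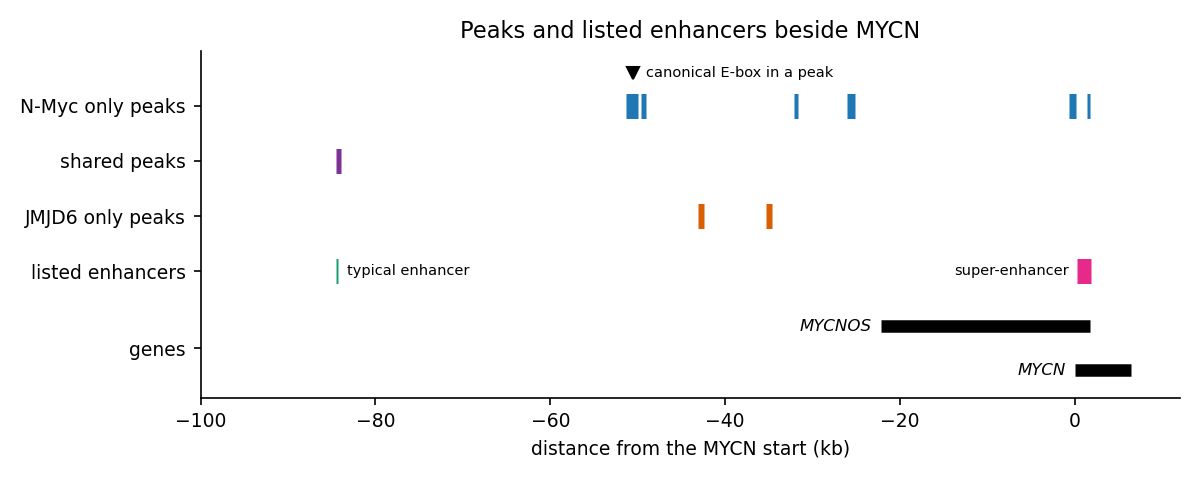
Positions of common peaks, listed enhancers and genes by distance from the MYCN start in kb, from 100 kb upstream to 12 kb downstream. Each block spans an interval from its start to its end. Of 9 intervals, 1 is shared, centered at -84.2 kb, and the JMJD6 only peaks are centered at -42.7 and -35.0 kb, while the N-Myc peaks at 0 kb and beyond it have no JMJD6 peak beside them.

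DDX1 (chr2:15731302-15774470, plus strand) had N-Myc at its promoter and the widest interval of either list within its body. The N-Myc peak chr2:15731204-15731940 (737 bp) covered the start. It contained CACGCG just before the start and again, on the other strand, inside the gene. Of the RefSeq promoters, which at 300 bases are shorter than this peak, 11.4% held the motif. The nearest JMJD6 peak, chr2:15760436-15761316 (881 bp), lay 29.13 kb into the gene and was shared. Next to it lay chr2:15762362-15766514, a shared interval of 4153 bp over coding exons and introns of DDX1, the widest of 10165 N-Myc and of 549 JMJD6 peaks on the nuclear chromosomes. In all, 6 N-Myc and 4 JMJD6 peaks were nearest to DDX1, and 2 were shared. Super-enhancers assigned to both MYCN and DDX1 lay at chr2:15730411-15740317 (9.907 kb, 1 N-Myc peak) and chr2:15755595-15758166 (2.572 kb, 2 N-Myc peaks). Neither overlapped a JMJD6 peak, and over all annotated genes 0.0391% had a super-enhancer with JMJD6.

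NBAS (chr2:15307040-15701464, minus strand) had no promoter in either list but most of the peaks. By distance to the gene body, 55 N-Myc and 50 JMJD6 peaks were nearest to NBAS. Of these, 27 and 22 lay inside the gene. They were largely intronic: 1 of the 27 N-Myc peaks and 3 of the 22 JMJD6 peaks overlapped a coding exon. The N-Myc peak nearest to the NBAS start was 15.73 kb upstream of it and the nearest JMJD6 peak 24.82 kb downstream, in the gene. The widest interval assigned to NBAS, chr2:15153991-15156696 (2706 bp), was shared and lay beyond the 3′ end of the gene. Of all N-Myc peaks of the segment, 56 of 72 had their midpoint in an intron, 27 of them in NBAS and 21 in ENSG00000287291. For JMJD6 it was 42 of 57, with 22 and 19 in the same genes. The rule measured distance to the 5 genes alone. For 19 N-Myc and 19 JMJD6 peaks assigned to NBAS the nearest coding gene was LRATD1 on the far side of NBAS from MYCN, and 1 N-Myc peak assigned to FAM49A was nearest to VSNL1 and 1 to SMC6.

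NBAS was the only one of the 5 genes with JMJD6 at super-enhancers. The super-enhancer chr2:15514352-15529085 (14.73 kb) lay in NBAS and had 1 peak, chr2:15524720-15526466 (1747 bp), listed for both proteins. The super-enhancer chr2:15382269-15385014 (2.746 kb) had a JMJD6 peak at chr2:15382830-15383101 (272 bp) and an N-Myc peak at chr2:15383187-15383692 (506 bp), side by side without overlap. Typical enhancers assigned to NBAS lay at chr2:15011551-15014292 (2.742 kb) and chr2:15157071-15158106 (1.036 kb), each with a shared peak, and the latter also with a peak of JMJD6 alone. A further one at chr2:14774744-14775672, over LRATD1, had N-Myc alone.

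FAM49A (chr2:16730727-16847599, minus strand, CYRIA in the annotation) had little of either protein. A typical enhancer of 388 bp in one of its introns, chr2:16790010-16790397, lay within the N-Myc peak chr2:16790005-16790587 (583 bp), 57.01 kb downstream of the start. It was the only N-Myc peak inside the gene. Of the other 3 assigned to FAM49A, chr2:17721417-17722090 (674 bp) lay at a start site of VSNL1, a neuronal calcium sensor, and contained CACGTG. The JMJD6 peak nearest to the FAM49A start was 801.6 kb away, on the far side of MYCN.

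These counts can be set beside the whole lists. A promoter with N-Myc was listed for 3 of the 5 genes (MYCN, MYCNOS, DDX1), against 10.0% of 38373 annotated coding and long non-coding genes, and a typical enhancer with N-Myc for 4 of 5, against 16.7%. For super-enhancers with N-Myc it was 4 of 5, against 0.691%. In the JMJD6 lists no promoter named any of the 5 genes, against 0.357% of all genes. Typical enhancers with JMJD6 named 3 of 5, against 0.477%, and super-enhancers 1 of 5, against 0.0391%. MYCN shares enhancer rows with DDX1 and FAM49A, since up to 2 genes are named per region, so the 5 genes are not independent observations. The only super-enhancer that names FAM49A is the one at MYCN. The line is MYCN-amplified, and the part of copy number in these counts was not tested. Of 20 other genes of 2p24 and 2p25, 7 had any row: 3 a promoter with N-Myc (ODC1, PDIA6 and VSNL1) and 6 a typical enhancer with N-Myc. None of the 20 had a super-enhancer or any region with JMJD6.

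Over the 6 row counts per gene (promoters, typical enhancers and super-enhancers for each protein), the gene most like MYCN was ANK2, at a summed difference of 1. ANK2, which encodes an ankyrin, had 3 super-enhancers, 2 typical enhancers and 1 promoter with N-Myc, as MYCN did, and lacked the typical enhancer with JMJD6. DDX1, EYA1, FIGN and MAP1B followed at a difference of 2, out of 8279 genes compared. Every typical enhancer and super-enhancer that names DDX1 also names MYCN, so the likeness of DDX1 is largely built in. No gene was closer to NBAS than IRF2BP2 and SLC26A7, at a difference of 4. Both had the same N-Myc counts as NBAS, 3 typical enhancers and 2 super-enhancers, and no region with JMJD6.

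The super-enhancers that name the 5 genes were short. Ordered by length, the 1.509 kb region at MYCN was the shortest of the 162 super-enhancers with N-Myc. The 2.572 kb region in DDX1, the 2.746 kb region in NBAS and the 9.907 kb region at the DDX1 start took ranks 2, 3 and 5. The 14.73 kb region in NBAS had 23 shorter ones, and the median of all was 28.44 kb. Super-enhancers are ranked by their H3K27ac signal and not by their length, and that signal was not analyzed here. The part of amplification in the listing of these short regions was not tested.

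**Figure D2:**
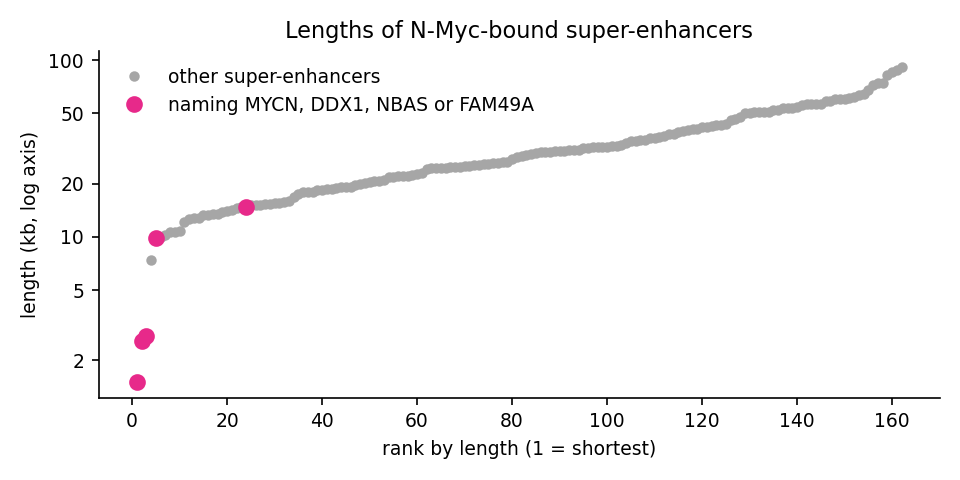
Length in kb (log axis) of each of the 162 super-enhancers with N-Myc against its rank by length. The 5 that name MYCN, DDX1, NBAS or FAM49A (large points) take ranks 1, 2, 3, 5 and 24.

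The peaks formed a dense block that ended at MYCN. From the first JMJD6 peak at 14828181 to the end of the MYCNOS start-site peak at 16082438, a length of 1254.3 kb, there were 66 N-Myc and 57 JMJD6 peaks, or 52.6 and 45.4 per Mb. The mean over all nuclear 1-Mb bins was 3.27 N-Myc and 0.176 JMJD6 peaks. The bin from 15 to 16 Mb, with 47 N-Myc peaks, ranked first of 3113 bins for N-Myc, and with 39 JMJD6 peaks it ranked second for JMJD6. Intervals of either list covered 6.36% of the block. Beyond MYCN the next N-Myc peak lay 707.57 kb away, in FAM49A, and no further JMJD6 peak was listed up to 18 Mb.

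The block consisted of 3 runs of peaks with no gap above 100 kb. The first, from 14774598 to 15206065, held 27 N-Myc and 28 JMJD6 peaks, 13 of them shared, and includes 1 N-Myc peak at LRATD1 before the first JMJD6 peak. The second, from 15313407 to 15799356, spanned NBAS and DDX1 and held 33 N-Myc and 26 JMJD6 peaks, 9 of them shared. The third, from 15996182 to 16082438, was that upstream of MYCN, with 7 N-Myc and 3 JMJD6 peaks, 1 of them shared. Gaps of 107.34 kb and 196.82 kb separated the runs. At the borders of the span, the nearest N-Myc peaks outside it were chr2:12858416-12858827 and chr2:20189030-20189701, and those just inside it chr2:14017716-14018008 and chr2:17979613-17979935. The JMJD6 peaks nearest to the span from outside were chr2:9771285-9771540 and chr2:27304074-27304404.

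**Figure D3:**
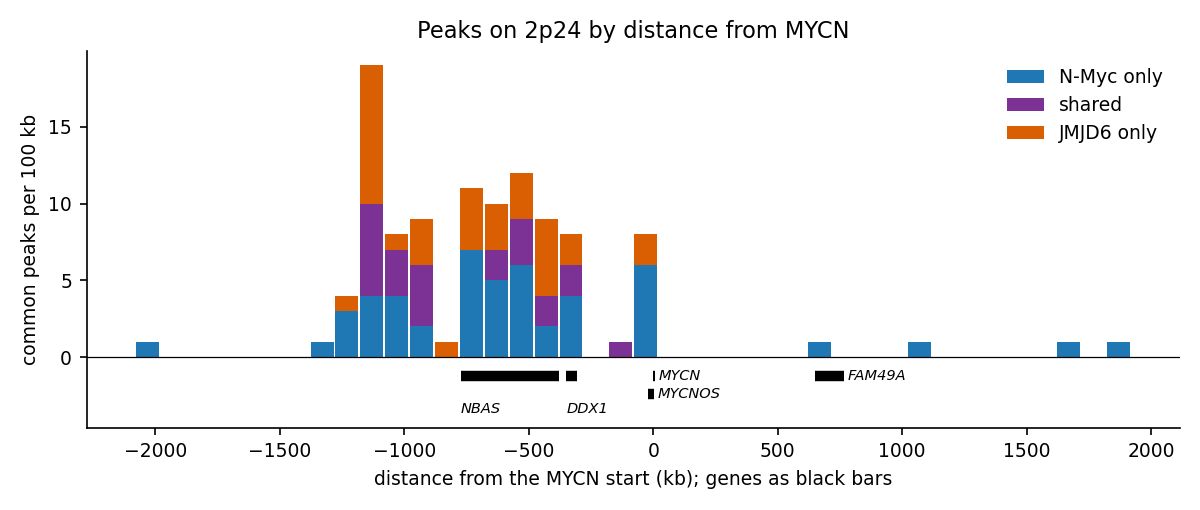
Number of common peaks per 100 kb between 14 and 18 Mb on chromosome 2, by distance from the MYCN start in kb, with peaks of N-Myc only, shared peaks and peaks of JMJD6 only stacked. The tall bars lie upstream of MYCN, over and beyond NBAS and DDX1, and 4 isolated N-Myc peaks follow downstream.

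An N-Myc peak overlapped 23 of the 57 JMJD6 peaks, or 40.4% (exact 95% CI 27.6 to 54.2%), beside 211 of 492 elsewhere, or 42.9% (38.5 to 47.4%). All 23 had the same start and end in both lists. From the side of N-Myc, 23 of 72 peaks were shared, or 31.9% (21.4 to 43.99%), beside 2.09% of 10093 elsewhere. For the 34 peaks of JMJD6 alone the median distance to the nearest N-Myc peak was 2388 bp, from 54 to 40339 bp, and 27 of the 34 were within 10 kb, beside 56 of 281 elsewhere, where the median was 47801 bp. The span was chosen with the density of N-Myc and JMJD6 peaks known. That density bears on the share of N-Myc peaks with JMJD6 and on these distances, so they are not read as separate results. The part of density in them was not tested.

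Peaks of this segment were wide. The shared intervals had a median width of 1144 bp (range 516 to 4153 bp), beside 506 bp for the 211 elsewhere, and 12 of 23 were over 1000 bp, beside 31 of 211. For N-Myc alone the medians were 514 and 416 bp, and for JMJD6 alone 563.5 and 386 bp. Of the 10 widest nuclear peaks of each list, 5 lay in this segment, and they were the same 5 shared intervals in both lists. Among the 50 widest it was 10 for N-Myc and 16 for JMJD6, where shared intervals again count in both. A shared interval has identical ends in both lists and may join the peaks of each, so its width need not be that of either, and no test was made of widths.

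**Figure D4:**
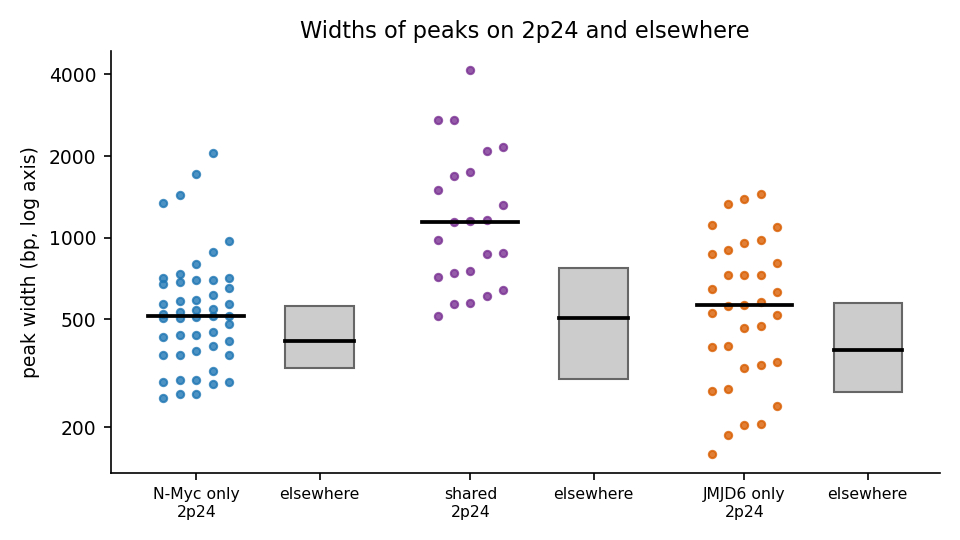
Peak width in bp (log axis) by class. Points are the single peaks between 14 and 18 Mb on chromosome 2 with their median as a line, and gray boxes span the quartiles of the same class on the other nuclear sequence, with the median as a line. The shared peaks of 2p24 have a median of 1144 bp and the shared peaks elsewhere one of 506 bp.

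Motif content and distance to start sites, which were not criteria in the choice of the peaks, were compared with the rest of each list. The peaks were chosen by position, however, and position sets both their sequence and their distance to start sites. The p-values are therefore nominal and describe this segment. They cannot tell the binding of the proteins from the sequence and gene layout there. The 4 comparisons used two-sided Fisher's exact tests, and the p-values were adjusted over the 4 (Benjamini-Hochberg). N-Myc peaks of the segment held the canonical E-box less often than other N-Myc peaks. It occurred in 8 of 72, or 11.1% (exact 95% CI 4.92 to 20.7%), against 33.6% of 10093 others (odds ratio 0.247, adjusted p = 3.11e-05 by Fisher's exact test), and 33.5% of all nuclear N-Myc peaks. Of these 8 peaks 5 were assigned to NBAS and 1 each to DDX1, MYCNOS and FAM49A. The motif occurred in 4.87% of consecutive 601 bp tiles of the same 4 Mb. The difference held among peaks over 1 kb from a start site, at 10.6% against 31.5% (adjusted p = 0.000182 by Fisher's exact test). Within 100 bp of the peak centre the share was 2.78% against 23.7%. By class, the canonical E-box occurred in 7 of 49 peaks of N-Myc alone (14.3%) and in 1 of 23 shared peaks (4.35%). Shared peaks made up 31.9% of N-Myc peaks here and 2.09% elsewhere, and the part of this mix in the difference was not tested.

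JMJD6 peaks of the segment did not differ detectably from other JMJD6 peaks in that motif. It occurred in 2 of 57, or 3.51% (exact 95% CI 0.428 to 12.1%), against 5.89% of 492 (odds ratio 0.581, adjusted p = 0.76 by Fisher's exact test), and 5.65% of all nuclear JMJD6 peaks. The interval of the first share includes the second.

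Peaks of both lists lay mostly away from start sites here. The number of start sites in the span was not analyzed, and its part in the shares below was not tested. Of the N-Myc peaks 6 of 72, or 8.33% (exact 95% CI 3.12 to 17.3%), were centered at most 1 kb from an annotated start, against 42.7% of the others (odds ratio 0.122, adjusted p = 6.85e-10 by Fisher's exact test). They were the peaks at MYCN, MYCNOS, DDX1, LRATD1 and VSNL1, and 1 at a long non-coding gene. Of the JMJD6 peaks 0 of 57 were, which allows a share of up to 5.26% by a limit of 3 counts and 6.27% by the exact interval, against 29.7% of 492 (adjusted p = 2.34e-08 by Fisher's exact test). Neighboring peaks share a locus and are not independent, although the tests count them as such. With peaks closer than 10 kb counted once, 37 N-Myc and 21 JMJD6 peaks were left, and the 3 differences kept their direction (adjusted p = 0.011 for E-boxes and 0.000638 and 0.000359 for start sites by Fisher's exact test).

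**Figure D5:**
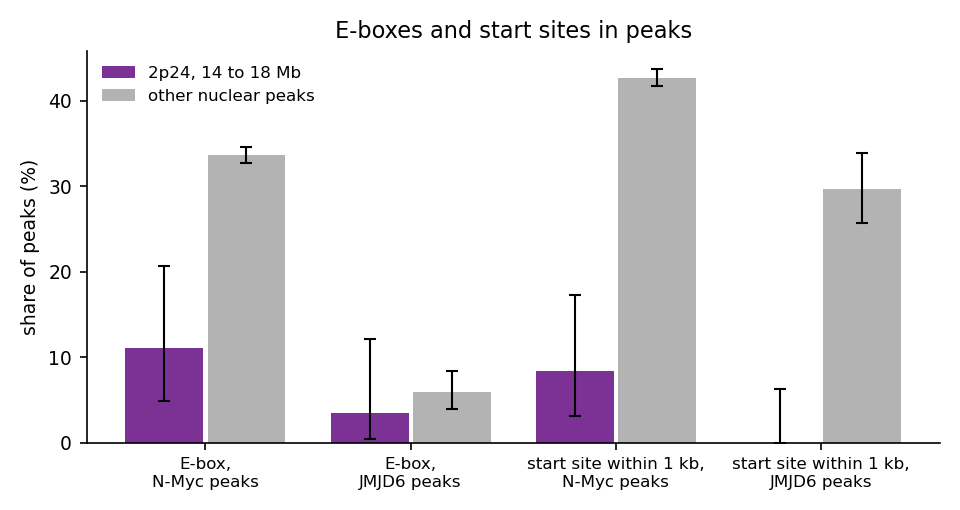
Share of peaks in percent that hold a canonical E-box or lie within 1 kb of a start site, for peaks between 14 and 18 Mb on chromosome 2 (purple) and the other nuclear peaks of the same list (gray), with exact 95% intervals as bars. The N-Myc shares are 11.1 and 33.6% for the E-box and 8.33 and 42.7% for start sites.

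The segment's peaks were also low in G and C. The median content was 40.4% in peaks of N-Myc alone, 33.4% in shared peaks and 34.1% in peaks of JMJD6 alone. Over each list the medians were 37.2% in the segment and 53.3% elsewhere for N-Myc, and 33.5% and 41.7% for JMJD6. The share of G and C was thus lower in the segment for both lists, and its part in the E-box shares was not tested. The sequence itself was nearly all unique: the median share of 75-mers that occur once in the reference was 100% in each class. All 23 shared peaks were wholly unique, and 5 of 34 peaks of JMJD6 alone and 1 of 49 peaks of N-Myc alone had under 90% unique 75-mers. The lists give neither copy number nor input signal. The part of amplification in the number and width of the peaks, and in the listed enhancers and super-enhancers, was not tested.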

How the data were processed

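ChIP-Seq peaks of CHP-134 cells were available as 12 deposited lists of positions in bp, without a score, count or column per sample. Per the labels and the study's methods, the authors aligned single-end reads to hg19 with BWA, processed files with SAMtools and bedtools, and ran MACS2 2.1.1.20160309 on each replicate with input as the control, at a q-value maximum of 0.05. Peaks of all 3 replicates were kept. Promoters reached 1 kb to each side of RefSeq start sites. Enhancers came from H3K27ac peaks by ROSE and were paired with genes by GREAT. The depth per sample was not analyzed here. The study describes its pulldowns as triplicates and its experiments as repeated, without naming the cultures behind each replicate.

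Groups followed the antibody in the labels. Peaks between 14 and 18 Mb on chromosome 2 were assigned to the nearest of the 5 genes by the peak midpoint and GENCODE version 44 lifted to GRCh37, where FAM49A is CYRIA. Overlap meant at least 1 bp. Motifs were read on both strands. Shares have Clopper-Pearson intervals, and 4 of them were compared by Fisher's exact test. Background genes were RefSeq symbols, to which 89.0% to 100% of the symbols in each list were matched. The procedures were tested on simulated data. Some items are not reported here. Python 3.11.15, numpy 2.4.6, SciPy 1.17.1, pysam 0.24.0 and matplotlib 3.10.9 were used. The genes, lists and tests were chosen with earlier results of these data known. By rule, the 5 genes were named in every list, with each region that names one, their nearest and widest peaks, and the genes most like MYCN and NBAS by row counts.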

Additional observations from a re-analysis of the deposited data

How the results depend on the processing

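No paired analysis was possible because the lists hold no column per sample, so replicates could not be left out one at a time either. Of 48 alternative values for 15 results, 5 moved a count by over 1.5 times and none of the tested shares crossed its threshold. The untested share of JMJD6 peaks that overlap an N-Myc peak, 40.35% beside 42.89% elsewhere, was the higher one among wide peaks, at 51.11% beside 50.87%, and with peaks closer than 10 kb counted once, at 38.1% beside 30.71%, so no direction is read from it. Assigning peaks by distance to the start site gave MYCN 6 N-Myc and 3 JMJD6 peaks and MYCNOS 1 and 0, in place of 0 and 0 for MYCN and 7 and 3 for MYCNOS, since the genes overlap. Keeping peaks at least as wide as the median of their list left FAM49A with 2 N-Myc peaks in place of 4. The E-box share of N-Myc peaks ranged from 2.78 to 14.04% over the alternatives, below the other peaks in each (adjusted p from 1.37e-08 to 0.011 by Fisher's exact test). That of JMJD6 peaks ranged from 0 to 4.88%, with adjusted p from 0.0701 to 1 by Fisher's exact test. Start-site shares ranged from 7.02 to 13.9% for N-Myc and from 0 to 3.51% for JMJD6, lower than elsewhere in each. The comparison with chromosome 2 alone was chosen after seeing the data. Without scores, a stricter threshold could be imitated only by width.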
